A study of Mus musculus with 19 samples.

Results

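The genes described here make or fill the mitochondrion: the subunits of its ribosome, the machinery that carries proteins across its 2 membranes, the chaperones that fold them, and a prohibitin. They were chosen by name, as the probe sets whose only gene symbol starts with Mrpl, Mrps, Timm or Tomm or is Phb, Phb2, Hspd1, Hspe1, Hspa9 or Tfam. That rule found 101 probe sets for 83 genes among 12422 probe sets that were not array controls. Large ribosomal subunit genes (Mrpl) numbered 40, small subunit genes (Mrps) 21, inner membrane import genes (Timm) 12 and outer membrane import genes (Tomm) 5. These roles follow the start of the symbol alone, and the place of a single protein may differ from its role. The other 5 were the chaperones Hspd1, Hspe1 and Hspa9, the prohibitin Phb2, and Tfam, which packages mitochondrial DNA. Phb is not among them, because its probe set carried a further symbol, and 8 such probe sets were left out for that reason.

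Expression was read on 19 oligonucleotide arrays, 1 per sample of mouse OT-I cells, CD8 T cells with a transgenic receptor for an ovalbumin peptide. The cells had been put into B6 mice and recovered by sorting from lymph nodes or spleen. There were 8 arrays of irradiated hosts at day 5, 4 at day 40 and 3 at day 115, and 4 of hosts that were not irradiated. Day 5 is the day in the titles and is used here, whereas the descriptions put that sort, like that of the unirradiated hosts, at day 6. For day 5 arrays 1 and 2 no cell type is named. Neither the radiation dose, the age of the mice nor the number of mice per sample is stated, so p-values measure the spread between these samples, which may be technical. Every group shares the transgenic receptor and the transfer, and no group of cells taken directly from a donor was compared. Cd8b1 and Cd8a read at least 1851 in each array and Cd3e 180 to 291, so the labelled cell type had its markers.

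Mitochondrial ribosomes translate the few proteins that mitochondrial DNA encodes, all of them parts of the respiratory chain or of ATP synthase, while every ribosomal protein is itself encoded in the nucleus and imported. Precursor proteins pass the outer membrane through the TOM complex and the inner membrane through TIM complexes, are pulled into the matrix by the Hsp70 chaperone Hspa9, and are folded by Hsp60 (Hspd1) with its lid Hsp10 (Hspe1). Activated T cells are known to build up their mitochondria, and T cells placed in an irradiated host, which has few lymphocytes of its own, are known to divide there.

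Promoter sequences are shown first, for the 4 genes on which several results turn: Hspd1 and Hspe1, of which Hspe1 and 1 of the 2 Hspd1 probe sets (93277_at) moved together across the arrays, and Phb2 and Mrpl18. The group means of Phb2 and Mrpl18 were highest at day 5, though single arrays overlapped between groups. Entries for 74 of the 83 genes were found in RefSeq's GRCm38.p6 promoter table, with 250 bases before and 50 bases after each start. Hspd1 and Hspe1 lie head to head on chromosome 1, with 215 bases between the start of Hspe1 on the plus strand and the nearer of 2 starts listed for Hspd1 on the minus strand (chr1:55087933-55088147, plus strand). For Phb2 (chr6:124712039-124712288, plus strand) and Mrpl18 (chr17:12916092-12916341, minus strand) the 250 bases before the start are given. Capitals mark CCGGAAG on either strand, the core that ETS-family factors such as GABP bind, and, between Hspd1 and Hspe1, 4 alternating TTC and GAA blocks as in a heat shock element.
Hspd1-Hspe1: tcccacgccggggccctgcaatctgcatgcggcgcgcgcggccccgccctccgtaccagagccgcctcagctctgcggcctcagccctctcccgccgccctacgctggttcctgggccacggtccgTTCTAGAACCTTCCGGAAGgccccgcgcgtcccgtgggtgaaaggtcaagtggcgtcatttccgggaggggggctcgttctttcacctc
Phb2: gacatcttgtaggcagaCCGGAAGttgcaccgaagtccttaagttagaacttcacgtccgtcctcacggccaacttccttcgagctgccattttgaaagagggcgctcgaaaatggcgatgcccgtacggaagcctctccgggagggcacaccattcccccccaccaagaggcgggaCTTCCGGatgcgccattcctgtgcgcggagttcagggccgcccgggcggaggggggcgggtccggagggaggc
Mrpl18: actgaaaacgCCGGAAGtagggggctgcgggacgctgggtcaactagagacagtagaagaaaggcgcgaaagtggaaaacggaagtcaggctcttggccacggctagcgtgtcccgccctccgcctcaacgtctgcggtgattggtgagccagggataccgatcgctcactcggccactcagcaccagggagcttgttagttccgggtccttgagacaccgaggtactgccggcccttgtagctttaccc

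The stretch between Hspd1 and Hspe1 held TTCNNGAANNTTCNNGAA, which reads the same on both strands and was found in 5 of 32851 promoters (0.0152%); this motif was picked after the sequence had been seen. Its last 9 bases overlap 2 ETS matches on opposite strands. CCGGAAG was present in the promoters of 30 of the 74 member genes (40.5%), against 9.93% of all 27025 genes in the table. The NRF1 core GCGCATGC was present in 5 member genes (6.76%), against 3.05% of all, and the E-box CACGTG in 9 (12.2%), against 8.09%. These shares describe letters in a window and were not tested.

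Signals were compared as log2(signal + 16), and log2 differences below are on that scale, which understates changes of dim probe sets. Of the 101 probe sets, 86 (77 genes) had a mean signal above the 30th percentile of the table, 26.4, and were tested among 8695. Adjusted p-values are from limma over all 8695, and a probe set is called when its adjusted p is under 0.05. Where a gene has several probe sets the one meant is named, and endings such as _f_at, _i_at and _r_at mark designs with probes shared with similar sequences, fewer probes or relaxed rules. The 15 not tested averaged 12.2 (Tfam) to 25.6 (one probe set of Mrpl50). Tfam averaged 12.3 ± 1.16 (SD, n = 8) at day 5, 12.2 ± 1.23 (n = 4) on day 40, 11.9 ± 1.02 (n = 3) on day 115 and 12.1 ± 0.962 (n = 4) in unirradiated hosts, under the filter in each group.

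The 19 arrays were cut into 2 sets by their correlations over the tested probe sets, and day 5 and day 40 each had arrays in both. In array cluster 1 were day 5 arrays 1 to 3, day 40 arrays 1 and 2 and the 3 day 115 arrays; in array cluster 2 were day 5 arrays 4 to 8, day 40 arrays 3 and 4 and all 4 unirradiated arrays. Arrays of the same group in different clusters correlated less (median r 0.884) than arrays of different groups in the same cluster (0.962). The clusters were drawn from these same correlations, so this describes them and is no separate test. The labels do not say what sets the clusters apart. Each comparison is therefore given with group as the only factor, with the cluster as a further term, and within a cluster where both groups are in it. Day 115 and unirradiated hosts share no cluster, so there cluster and group cannot be told apart.

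**Figure D1:**
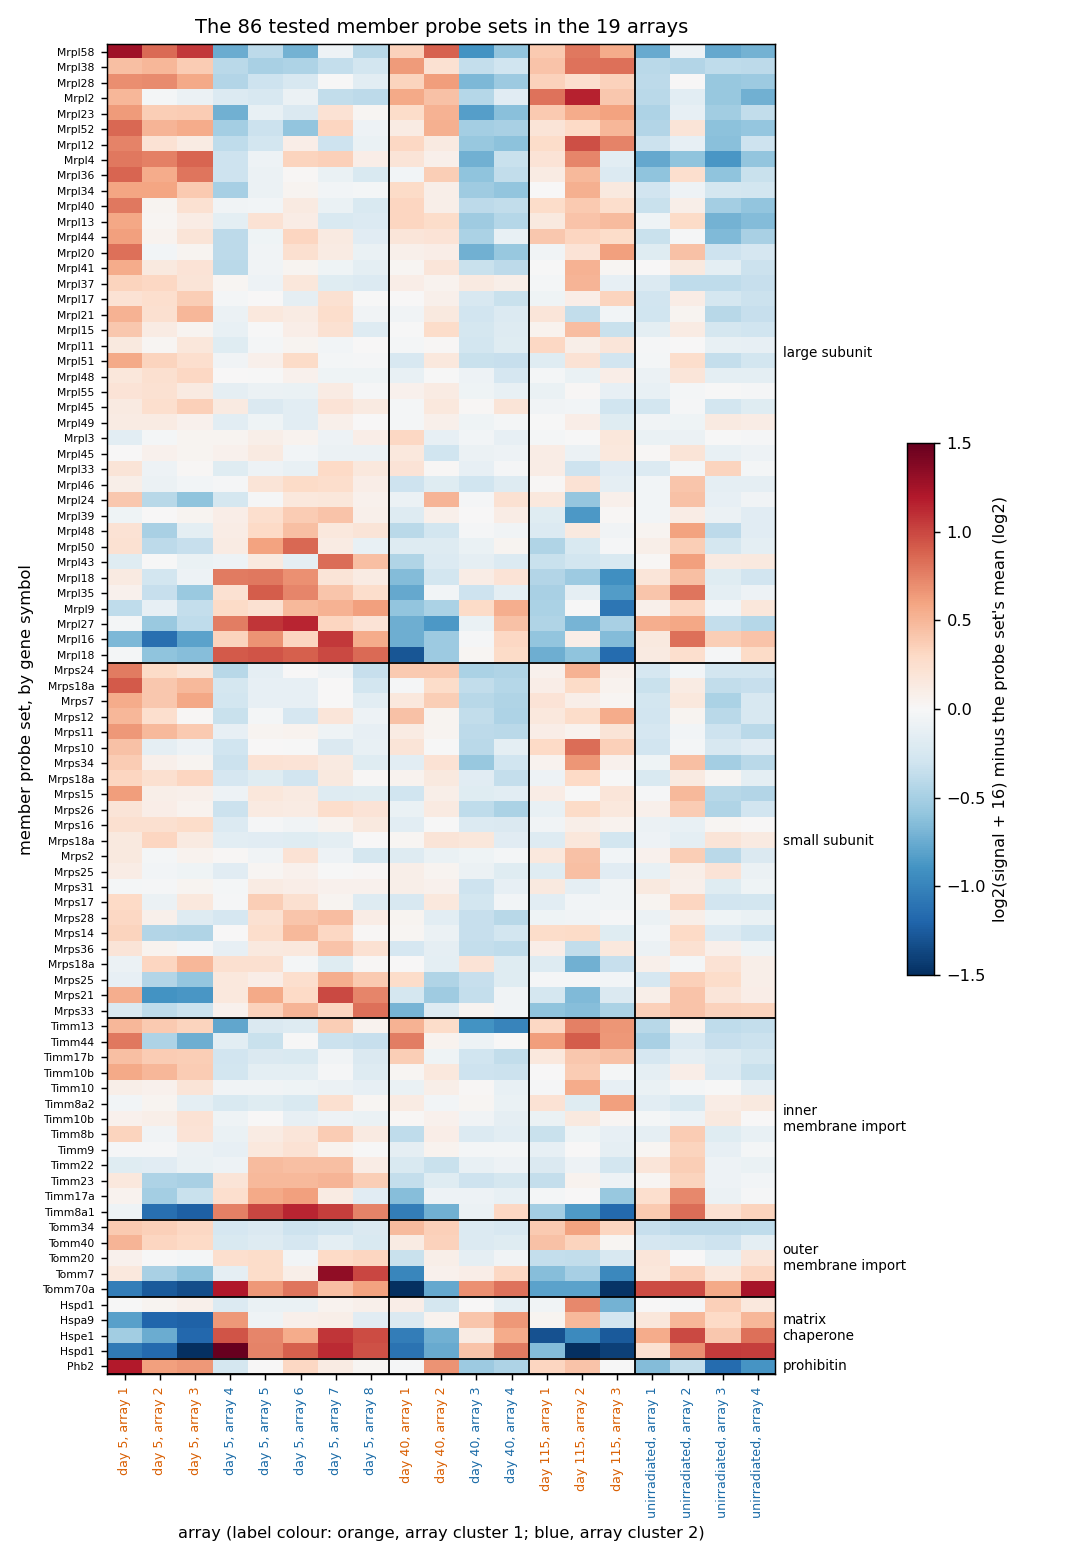
Log2(signal + 16) of the 86 tested member probe sets (rows, grouped by role) in the 19 arrays (columns, grouped by condition), minus the mean of each probe set; colours stop at 1.5 in either direction. Rows at the top and bottom of the large subunit block change colour between orange-labelled arrays (cluster 1) and blue-labelled arrays (cluster 2) within day 5 and within day 40, as do Tomm70a, Hspe1 and 1 of the 2 rows of Hspd1.

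At day 5, the ribosomal protein gene Mrpl4 and the prohibitin gene Phb2 were higher than in unirradiated hosts by about 1 on the log2 scale, and most other large subunit genes were slightly higher. Phb2, which forms ring complexes in the inner membrane with Phb, had a lowest, median and highest signal of 136, 197 and 401 in the 8 day 5 arrays, against 101, 126, 66.6 and 83.0 in the 4 unirradiated arrays. Every day 5 array was above every unirradiated one, and the difference was 1.10 ± 0.25 (log2 ± SE, limma adjusted p = 0.0455). Mrpl4, a large subunit protein, had 98.2, 165 and 245 at day 5 in the same order, against 67.2, 77.6, 61.4 and 78.3 in unirradiated hosts. The groups again did not overlap, and it rose by 1.06 ± 0.22 (adjusted p = 0.0348).

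Those 2 were the only calls among the 86, both upward; over all probe sets 0.794% were called, 0.414% upward and 0.38% downward. Of the 86 members, 65 were higher and 21 lower at day 5, with a median difference of 0.13, beside 57.3% higher and a median of 0.03 over all 8695. The large subunit led this: 35 of its 40 probe sets were higher, median 0.24, against 18 of 23 for the small subunit, median 0.13, and 8 of 13 for inner membrane import, median 0.06. All 4 chaperone probe sets were lower, none past the threshold, with Hspa9 at -0.70 ± 0.30 (adjusted p = 0.313) and Hspd1 (93277_at) at -0.58 ± 0.55 (adjusted p = 0.617). Neither call held without day 5 array 1, 2, 3 or 6 or without any one of the 4 unirradiated arrays, and 1 held without day 5 array 5.

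**Figure D2:**
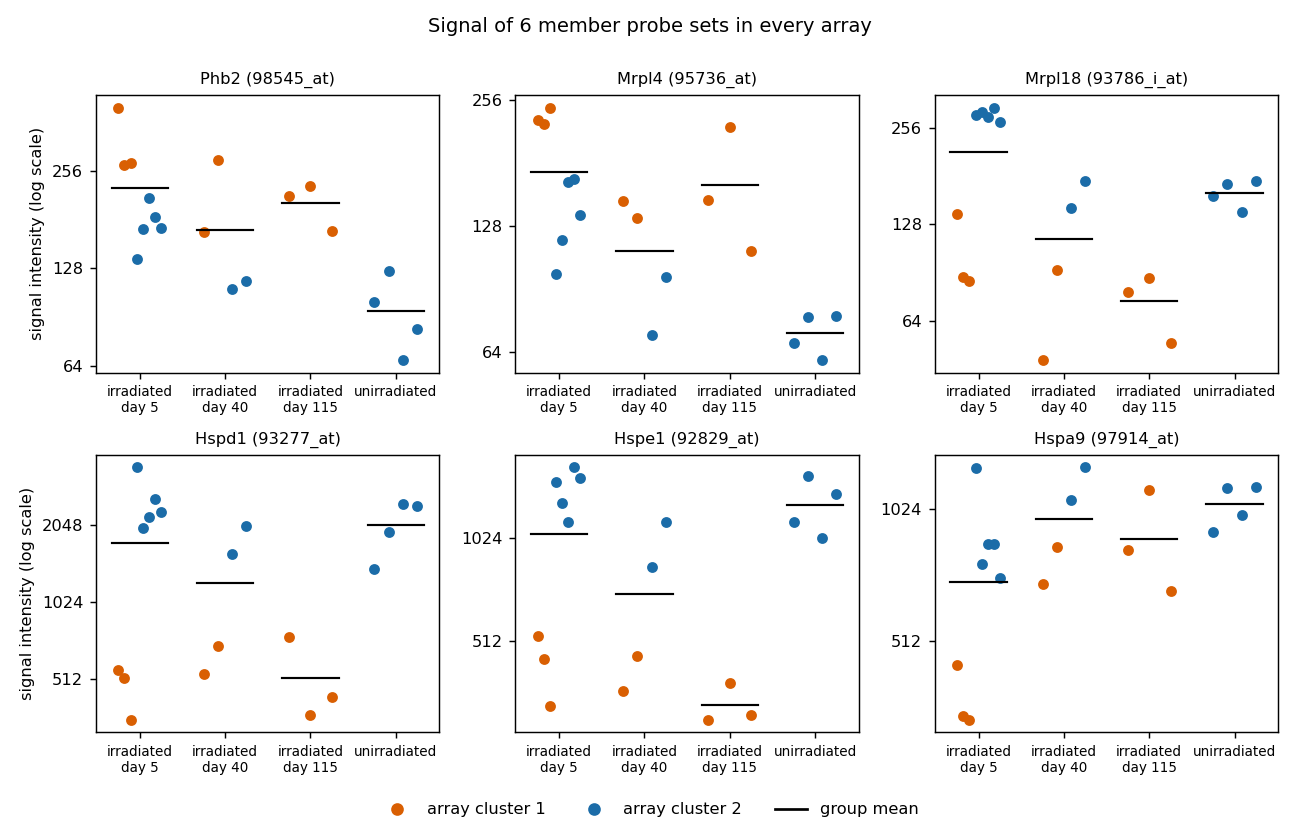
Signal intensity (log scale) of 6 probe sets in every array, with day 5, day 40, day 115 and unirradiated hosts from left to right; each point is 1 array, coloured by array cluster, and black lines are group means. Every day 5 point of Phb2 and Mrpl4 lies above the unirradiated points, and Hspd1 and Hspe1 split by cluster within day 5 and within day 40.

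A fit with the cluster as a term called 3 members at day 5, all upward, where 1.61% of all probe sets were called: Mrpl4 (0.80 ± 0.15, adjusted p = 0.00799), Phb2 (0.80 ± 0.17, adjusted p = 0.0166) and a probe set of Mrpl18 (93786_i_at, 0.72 ± 0.15, adjusted p = 0.0156). Within array cluster 2 alone, 5 day 5 arrays against all 4 unirradiated ones, the 3 calls were again Mrpl4 (0.79), Phb2 (0.80) and this Mrpl18 probe set (0.76, adjusted p = 0.00192), where 2.38% of all were called. Mrpl18, a large subunit protein whose bacterial counterpart binds ribosomal RNA, read 282, 287, 277, 296 and 266 in those day 5 arrays, against 157, 171, 140 and 175 in unirradiated hosts. Neither group reached the other there, whereas day 5 arrays 1 to 3 in cluster 1 read 138, 87.7 and 85.3, and the whole group of 8 gave 0.25 ± 0.33 (adjusted p = 0.727). Its other probe set (93787_f_at) differed by 0.47 ± 0.19 within cluster 2 (adjusted p = 0.254). Of the 4 chaperone probe sets within cluster 2, 2 were higher at day 5 and 2 lower, from -0.25 to 0.30, and none was called. Hspd1 (93277_at) averaged 2493 at day 5 against 2040 in unirradiated hosts and Hspe1 1421 against 1273, neither past the threshold (adjusted p = 0.53 and 0.699). Hspa9 and the other Hspd1 probe set (161140_r_at) were the 2 that were lower.

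Cell division genes were set beside the members. Of 18 tested, 17 were higher at day 5 than in unirradiated hosts, median 0.56, beside 57.3% of all probe sets. Of the 18, 4 rose (Stmn1, Ccnb2, Cdk1 and Top2a), where 0.414% of all were called upward. The summed signal of that list ran from 3312 to 8596 at day 5, from 2493 to 2625 at day 40, from 2403 to 2717 at day 115 and from 2459 to 3238 in unirradiated hosts. The part of dividing cells in the members' levels was not tested.

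At day 40 the members were near, or slightly under, their level in unirradiated hosts. Those hosts were sorted at day 6, so irradiation and day of sorting cannot be told apart in this comparison. None of the 86 was called, against 1.5% of all probe sets; 10 had an unadjusted p under 0.05, with 39 higher, 47 lower and a median of -0.04. Adding the cluster as a term gave no call either, against 2.23% of all, and 5 with an unadjusted p under 0.05; 63 of 86 were lower, median -0.10, beside 55.4% of all. All 23 probe sets of genes named Mrps were lower in that fit, by 0.03 to 0.32. Of these, 4 measure the single gene Mrps18a, and none of the 23 was past the threshold on its own. Within array cluster 2 (2 day 40 arrays), 1 of the 86 was called, against 3.07%: Mrpl37, a large subunit protein, read 92.4 and 89.1 at day 40, against 69.8, 59.7, 60.0 and 61.8 in unirradiated hosts, a rise of 0.44 ± 0.11 (adjusted p = 0.0459).

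Set against day 5 directly, day 40 was lower in nearly the whole group of genes, by small amounts. With group as the only factor 76 of the 86 were lower, median -0.20, while 51.2% of all probe sets were lower, with a median near 0; none was called (1.25% of all were), and 16 had an unadjusted p under 0.05. The large subunit had 36 of 40 lower and the small subunit 22 of 23. Once the cluster was a term 77 of 86 were lower, median -0.22, and 7 were called, against 7.48% of all. Of these 6 fell, against 2.33% of all downward, and 1 rose, against 5.14% of all upward.

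The 6 that fell all had symbols starting with Mrpl or Mrps. Of the 86 tested members, 40 had symbols starting with Mrpl and 23 with Mrps. Mrps11, a small subunit protein, fell by 0.39 ± 0.07 (adjusted p = 0.00389): it read 78.0, 73.0, 50.1 and 49.4 in day 40 arrays 1 to 4, against 63.2, 73.2 and 120 as lowest, median and highest at day 5. The groups overlapped as a whole but not within a cluster, since day 5 was at least 97.1 in cluster 1 and at least 63.2 in cluster 2. The Mrpl18 probe set 93786_i_at fell by 0.64 ± 0.14 (adjusted p = 0.00999), with 48.3, 92.0, 144 and 175 at day 40. Mrpl4 fell by 0.64 ± 0.14 (adjusted p = 0.0117), with 147, 133, 70.2 and 96.8 at day 40, and Phb2 was 0.52 ± 0.16 lower without passing (adjusted p = 0.0513). The others were Mrpl34 (-0.39), Mrps16 (-0.26) and Mrps36 (-0.42), the last of which is also known as a subunit of the 2-oxoglutarate dehydrogenase complex.

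The 2 clusters share no array, and the shift was clearer in cluster 2. In cluster 1 (2 day 40 and 3 day 5 arrays) 68 of 86 were lower, median -0.13, and none was called, where 0.0115% of all were; 8 had an unadjusted p under 0.05. Averaged over the 86 and set against the unirradiated mean, the day 40 arrays of cluster 1 were at -0.04 and 0.07 and its day 5 arrays at 0.31, 0.04 and 0.04 (log2), so the groups overlapped. Without day 5 array 1, 50 of 86 were lower in cluster 1 (58.1%), median -0.08, against 55.7% of all probe sets, median -0.03. In cluster 2 (2 and 5 arrays) 73 of 86 were lower, median -0.28, and 5 fell, where 5.66% of all were called: the Mrpl18 probe set (-0.77 ± 0.12, adjusted p = 0.00439), Timm23, Timm8a1, Mrps28 and Mrps36. Leaving out 1 array of cluster 2 left 71 to 74 of 86 lower, and the number called was 18 without day 5 array 4 (17 down), 2 without day 5 array 5, 3 without day 5 array 7 or 8, 1 without day 40 array 4 and 0 without day 40 array 3. The shares of all probe sets called without those arrays are not given. A total of 61 members (70.9%) were lower in both clusters and 6 (6.98%) higher in both, beside 32.8% and 30.3% of all probe sets. Without day 5 array 1, 43 (50%) were lower in both, beside 32% of all. Timm23, the channel of the inner membrane translocase, read 504 and 521 at day 40 against 720 to 900 at day 5 in cluster 2, and 486 and 550 against 441 to 702 in cluster 1. Timm8a1, a small chaperone of the intermembrane space, read 180 and 241 against 332 to 443 in cluster 2, and 84.6 and 110 against 72.9 to 182 in cluster 1. For both import genes the groups were apart in cluster 2 and overlapped in cluster 1. The difference between the clusters in the day 40 minus day 5 change was tested directly and was called for none of the 86 and for 0% of all probe sets (5 members had an unadjusted p under 0.05).

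**Figure D3:**
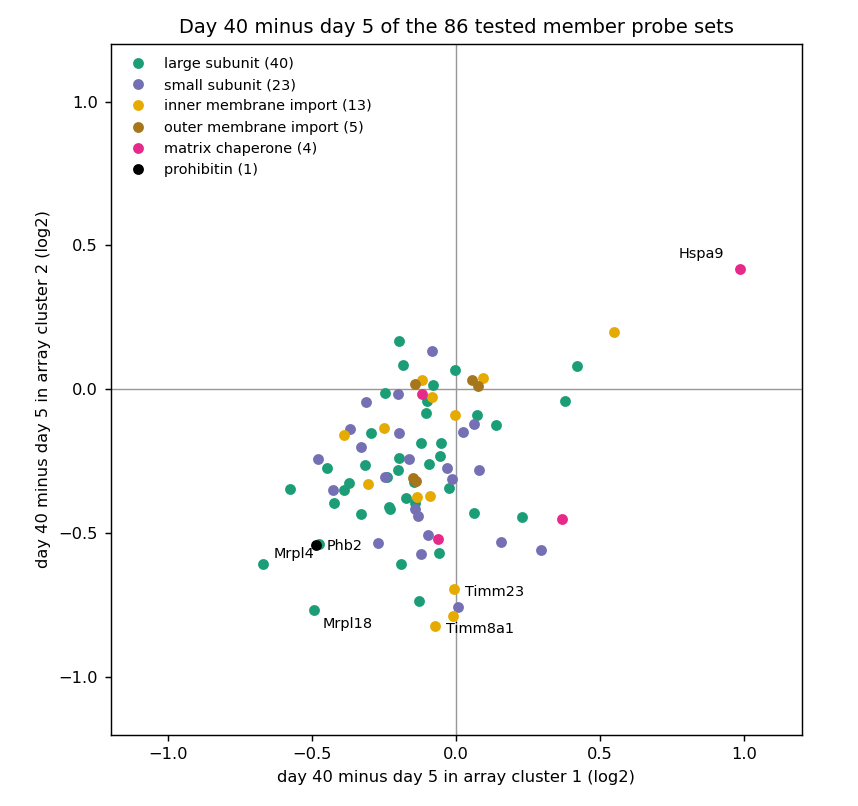
Log2 difference of day 40 minus day 5 of each tested member probe set within array cluster 1 (horizontal) and within array cluster 2 (vertical), coloured by role. 61 of the 86 points lie below and left of 0, lower at day 40 in both clusters, and Hspa9 lies farthest up and to the right.

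Hspa9 moved the other way. This mitochondrial Hsp70, the motor of import and a chaperone for iron-sulphur cluster assembly, was the only member that rose at day 40 against day 5, by 0.68 ± 0.17 with the cluster as a term (adjusted p = 0.0197). In cluster 1 it read 690 and 836 at day 40 against 452, 345 and 339 at day 5, and in cluster 2 1075 and 1274 against 714 to 1270. The 2 groups were apart in cluster 1 and overlapped in cluster 2; the differences were 0.99 ± 0.26 and 0.42 ± 0.20 (adjusted p = 0.356 and 0.265). Day 115 arrays, all in cluster 1, read 825, 1133 and 664, and were 1.15 ± 0.23 above the cluster 1 day 5 arrays (adjusted p = 0.0431). It was the only member called in that comparison within cluster 1, where 1.28% of all probe sets were. With group as the only factor it was called in no comparison.

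Day 115 against unirradiated hosts gave the most calls, and it is the comparison in which cluster and group coincide. Irradiation and day of sorting cannot be told apart there either, since the unirradiated hosts were sorted at day 6. With group as the only factor 20 of the 86 members were called (23.3%), against 27.9% of all probe sets. Of these 14 rose (16.3% of the 86), against 15.1% of all upward, and 6 fell (6.98%), against 12.8% downward. With the cluster as a term, which rests on day 5 and day 40 arrays for the size of the cluster difference, none was called, against 4.42% of all, and 8 had an unadjusted p under 0.05. Leaving out day 115 array 2, unirradiated array 3 or unirradiated array 4 gave 9, 11 and 10 calls, and the shares of all probe sets called then are not given.

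Of the 14 that rose 9 were large subunit genes. Mrpl2, whose bacterial counterpart lies at the catalytic centre of the ribosome, read 151, 194 and 109 at day 115, against 55.3, 69.1, 47.7 and 41.5 in unirradiated hosts, a difference of 1.25 ± 0.24 (adjusted p = 0.00206). Mrpl38 read 158, 213 and 214, against 81.8, 79.8, 83.6 and 82.6, and differed by 1.10 ± 0.27 (adjusted p = 0.00833). Mrpl12, which also binds the mitochondrial RNA polymerase, read 219, 364 and 309, against 139, 162, 110 and 141 (1.01 ± 0.27, adjusted p = 0.0117). In all 3 the groups were apart, but the day 5 arrays of cluster 1 read 72.8 to 118 for Mrpl2, 153 to 167 for Mrpl38 and 196 to 309 for Mrpl12, in each case above every unirradiated array. Mrpl44, which carries a ribonuclease III fold, read 105, 98.3 and 94.6, against 56.4, 74.0, 41.7 and 49.3 (0.71 ± 0.20, adjusted p = 0.0168), and Mrpl4 read 148, 220 and 112 (0.97 ± 0.28, adjusted p = 0.0173). Mrpl23, Mrpl40, Mrpl37 and Mrpl11 rose by 0.26 to 0.89.

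Small subunit and import genes went both ways. Mrps10 rose by 0.68 ± 0.17 (adjusted p = 0.00915), with 146, 219 and 153 at day 115, against 91.9, 113, 95.2 and 101 in unirradiated hosts. Mrps33 fell by 0.94 ± 0.25 (adjusted p = 0.0110), with 115, 113 and 128, against 240, 252, 239 and 237. Mrps18a is measured by 4 probe sets, of which 1 fell (161767_r_at, -0.51) and the others were not called, the 4 running from -0.51 to 0.38. Timm44, which tethers Hspa9 to the import channel, read 275, 336 and 279, against 118, 147, 133 and 135, and rose by 1.07 ± 0.26 (adjusted p = 0.00885). Tomm34, a cytosolic co-chaperone of import, read 667, 776 and 637, against 395, 381, 381 and 386 (0.81 ± 0.22, adjusted p = 0.0138), while the receptor Tomm20 read 72.7, 71.7 and 80.2, against 112, 98.4, 88.9 and 113, a fall of 0.39 ± 0.13 (adjusted p = 0.0290). For all 5 the 2 groups did not overlap, but a call itself favours such a gap, and the 2 groups share no cluster. The share of all probe sets without overlap is not given. Tomm34 and Mrps33 also split by cluster inside day 5. There, Tomm34 read 632 to 669 in cluster 1 and 402 to 434 in cluster 2, and Mrps33 137 to 157 and 193 to 340. Tomm40, the channel of the outer membrane, rose by 0.51 ± 0.18 (adjusted p = 0.0454), and that value was -0.02 with the cluster as a term. The prohibitin Phb2 read 214, 230 and 167 at day 115, against 101, 126, 66.6 and 83.0 in unirradiated hosts, with no overlap, and rose by 1.01 ± 0.31 (adjusted p = 0.0237); with the cluster as a term the difference was 0.22 ± 0.25.

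**Figure D4:**
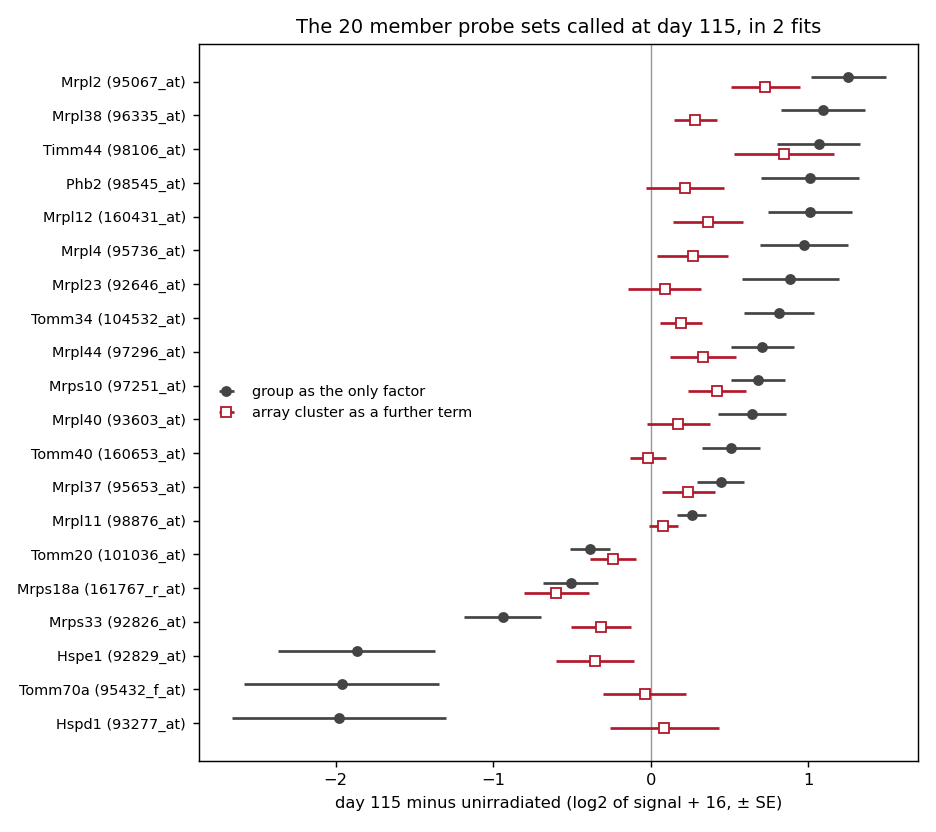
Log2 difference of day 115 minus unirradiated hosts (± SE) of the 20 member probe sets called with group as the only factor (filled circles), and the same probe sets with array cluster as a further term (open squares). Every square of the 14 that rose lies left of its circle, and those of Hspd1, Tomm70a and Tomm40 lie near 0.

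The largest falls at day 115 were in probe sets that split by cluster inside the other groups. Hspd1 (93277_at) read 743, 368 and 434 at day 115, against 1375, 1913, 2455 and 2419 in unirradiated hosts, a difference of -1.98 ± 0.68 (adjusted p = 0.0381). Hspe1 read 303, 388 and 313, against 1142, 1549, 1023 and 1378 (-1.87 ± 0.50, adjusted p = 0.0122), and the import receptor Tomm70a (95432_f_at) averaged 182, against 751 (-1.96 ± 0.62, adjusted p = 0.0258). The 2 groups were far apart for all 3, and the same gap stood within day 5. There, Hspd1 read 355 to 556 in cluster 1 and 1981 to 3432 in cluster 2, Hspe1 332 to 532 and 1140 to 1643, and Tomm70a 140 to 176 and 526 to 888. In the fit that held the cluster, Hspd1 differed by 0.087 (adjusted p = 0.904).

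The other probe set of Hspd1 (161140_r_at) did not show that gap: it read 163 to 174 in cluster 1 and 140 to 174 in cluster 2 at day 5, and differed by -0.14 at day 115 against unirradiated hosts. So the low reading of Hsp60 in cluster 1 rests on 1 of its 2 probe sets, and Hspe1 has 1 probe set. Within day 5, 8 of the 86 members were lower in cluster 1 by 2-fold or more (9.3%), beside 6.81% of all probe sets, and 1 was higher by as much (Mrpl58, a peptide-release factor of the ribosome), beside 2.02%. The 8 were Hspd1 (93277_at), Hspe1, Hspa9, Tomm70a, Timm8a1, Mrpl16, Mrpl27 and the Mrpl18 probe set 93786_i_at. In day 40 arrays 4 members (4.65%) were lower by that much, beside 5.91% of all: Hspd1 (93277_at), Tomm70a, Hspe1 and Mrpl18 (93786_i_at). Another 4 (4.65%) were higher in cluster 1 by as much, beside 1.7% of all: Timm13, Mrpl23, Mrpl28 and Mrpl58. These counts describe the arrays and were not tested.

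Markers of some other cells also stood higher at day 115 than in unirradiated hosts. The B cell list (10 of 11 genes measured, none at 0) summed to 2815 to 4415 at day 115, against 1117 to 1408 in unirradiated hosts. Of these 10 genes 5 were called with group as the only factor, where 27.9% of all probe sets were. With the cluster as a term 1 was called, where 4.42% of all were. The liver list (3 of 4 genes measured, none at 0) summed to 101, 578 and 744, against 81.4 to 92.3. Erythroid markers (5 of 8 measured) summed to 529 to 1309, against 257 to 432, and plasma cell markers to 166 to 241, against 130 to 153. Myeloid (403 to 443, against 394 to 527), neutrophil (366 to 399, against 325 to 384) and CD4 T cell markers (143 to 185, against 148 to 180) overlapped. The CD8 T cell list was higher too, at 10933 to 12954, against 8711 to 10676. At day 40 the B cell list summed to 1730 to 3402, above every unirradiated array, and the erythroid list to 424 to 1072, overlapping the unirradiated range. At day 5 the B cell list summed to 2306 to 2954 in cluster 1 and to 1355 to 1530 in cluster 2. The erythroid list ran from 291 to 2569 at day 5, with array 2 the highest of all 19, and the part of any of these cells in the members' levels was not tested. In bulk samples, more cells of a type and more RNA per cell cannot be told apart.

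Against day 5, day 115 arrays had 11 members called with group as the only factor, 12.8% of the 86, against 13.9% of all probe sets. The 4 that rose (8.23% of all upward) were Mrpl2, Mrpl38, Mrps10 and Timm44, by 0.55 to 0.92, and the 7 that fell (5.62% downward) were both probe sets of Mrpl18, Hspe1, Mrps33, Mrps18a (161767_r_at), Mrpl39 and Tomm20. Mrpl18 (93787_f_at) read 563, 520 and 400 at day 115, against a lowest, median and highest of 633, 859 and 1341 at day 5, a fall of 0.93 ± 0.25 (adjusted p = 0.0204). The groups did not overlap. Tomm20 fell by 0.47 ± 0.11 (adjusted p = 0.0104), below its range of 94.8 to 126 at day 5. When the cluster was added as a term 10 were called, against 14.3% of all: 3 rose (7.23% of all upward), Mrpl2, Hspa9 and Timm44, and 7 fell (7.1% downward), Tomm20, Mrpl21, Mrps18a (161767_r_at), Mrpl36, Mrps7, Mrps11 and Mrpl55. With group as the only factor, 2 were called without day 115 array 2, 7 without array 1 and 5 without array 3, and 6 without day 5 array 5, 6 or 7. The shares of all probe sets called without those arrays are not given.

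No member passed the threshold between day 115 and day 40. None was called with group as the only factor (0.092% of all probe sets), with the cluster as a term (0.196%) or within cluster 1 (0%), and 8, 8 and 1 had an unadjusted p under 0.05. With group as the only factor 58 of 86 were higher at day 115, median 0.15, and with the cluster as a term 52, median 0.07.

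Averaged over the 86 probe sets and set against the unirradiated mean, the arrays overlapped between groups. Day 5 arrays lay between 0.01 and 0.31, day 40 arrays between -0.16 and 0.07, day 115 arrays between -0.02 and 0.15, and unirradiated arrays between -0.11 and 0.23 on the log2 scale. Of the unirradiated arrays, array 2 was at 0.23 and the others were at or below -0.04. For the large subunit the 2 day 40 arrays of cluster 2 lay at -0.14 and -0.03 and the 5 day 5 arrays of that cluster at 0.05 to 0.28; for the small subunit they lay at -0.22 and -0.21 and at -0.09 to 0.18. For both subunits the day 40 and day 5 arrays of cluster 2 were apart. They were narrowly apart in cluster 1 as well. There, the large subunit lay at 0.08 and 0.19 on day 40, against 0.20 to 0.47 at day 5. The small subunit lay at 0.02 and 0.06, against 0.08 to 0.36.

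**Figure D5:**
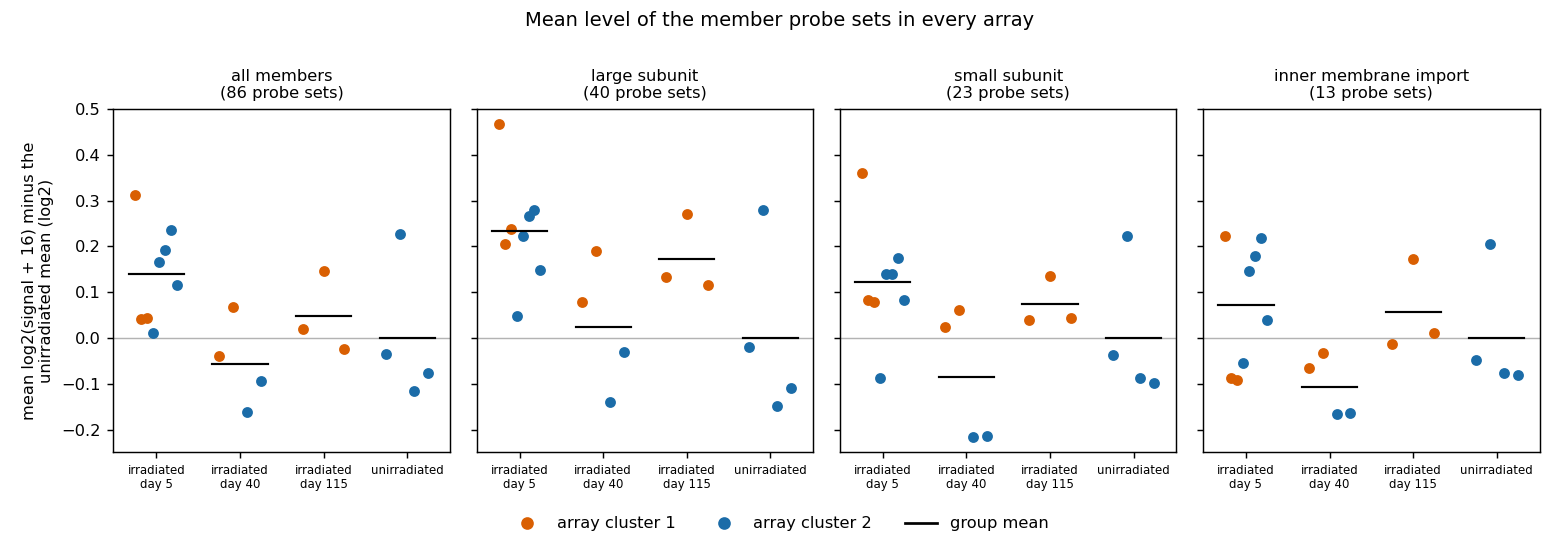
Mean log2(signal + 16) of all tested members and of 3 role groups in every array, minus the mean of the unirradiated arrays; points are arrays coloured by array cluster, black lines are group means. Day 40 arrays of cluster 2 lie lowest of all in the panels for the small subunit and inner membrane import.

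Other genes of the mitochondrial gene expression and import pathways were counted from lists, with 1 probe set each. By limma with group as the only factor, no gene of 4 such lists (61 tested) was called at day 5 against unirradiated hosts, where 0.794% of all probe sets were, and 9 had an unadjusted p under 0.05. With the cluster as a term none was called either (8 had an unadjusted p under 0.05), and within cluster 2 the ribonucleotide reductase subunit Rrm2b fell (-0.64 ± 0.14, adjusted p = 0.0371), where 2.38% of all were called. The list counts at day 115 against unirradiated hosts that follow stand beside 15.1% of all probe sets upward and 12.8% downward. Of 15 translation factors and tRNA enzymes, 6 rose and 2 fell at day 115 against unirradiated hosts, the smallest adjusted p being that of Tars2 (1.01 ± 0.19, adjusted p = 0.00168), the mitochondrial threonyl-tRNA synthetase, which was also called with the cluster as a term (0.90 ± 0.23, adjusted p = 0.0292). Of 13 genes of mitochondrial DNA upkeep and transcription, 3 rose and 2 fell, with thymidine kinase Tk2 at 1.28 ± 0.24 (adjusted p = 0.00207) and the polymerase Polg at 0.63 ± 0.12 (adjusted p = 0.00230). Of 22 processing, folding and other import genes, 4 rose and 5 fell, among them the protease Htra2 (-0.98 ± 0.17, adjusted p = 0.00139), which fell also with the cluster as a term (-0.80 ± 0.19, adjusted p = 0.0224). Of 11 regulators, 4 rose and 3 fell, with Atf4 at 1.39 ± 0.27 (adjusted p = 0.00249) and Gabpa, the DNA-binding subunit of GABP, at -1.14 ± 0.32 (adjusted p = 0.0164). In the fit that held the cluster, Tars2 and Htra2 were the only 2 of these 61 called at day 115 against unirradiated hosts (3.28%), where 4.42% of all were.

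At day 40 against day 5 these lists were mixed or mostly higher with group as the only factor. Lower at day 40 were 5 of 15 translation factors and tRNA enzymes, 2 of 13 DNA and transcription genes, 12 of 22 processing and folding genes and 2 of 11 regulators, with group as the only factor and none called (10 of the 61 had an unadjusted p under 0.05). With the cluster as a term, where 7.48% of all were called, Iars2 (0.47 ± 0.12, adjusted p = 0.0250) and Rrm2b (0.71 ± 0.15, adjusted p = 0.00889) rose and Pam16, a subunit of the import motor, fell (-0.25 ± 0.07, adjusted p = 0.0430). Within cluster 2, where 5.66% of all were called, 4 of the 61 rose: Rrm2b (0.99 ± 0.18, adjusted p = 0.0113), Tk2 (0.70 ± 0.15, adjusted p = 0.0226), Tars2 (0.63 ± 0.14, adjusted p = 0.0250) and Polg (0.25 ± 0.06, adjusted p = 0.0448). Of the 22 processing, folding and other import genes, 16 were lower within cluster 2, median -0.10, and 9 within cluster 1, median 0.05. Over all probe sets 47.8% and 54.7% were lower. In cluster 2, 5 of 15 translation factors and tRNA enzymes, 4 of 13 DNA and transcription genes and 4 of 11 regulators were lower. Within cluster 1 none of the 61 was called or had an unadjusted p under 0.05. All 18 cell division genes were lower at day 40, median -0.48, beside 51.2% of all probe sets. Of these, 5 fell with group as the only factor, where 1.25% of all were called in either direction.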

How the data were processed

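The deposited table gave linear signal intensities, from 7.68 to 13242.28, for 12488 probe sets of a mouse oligonucleotide array on 19 arrays; the way the authors made these intensities is not given in the sources used. Array medians ran from 49.54 to 53.72, and no further normalisation was applied. Their number, not a read depth, limits the precision.

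The 66 control probe sets were left out. Symbols came from the array's annotation table, in which 10833 probe sets had 1 symbol, 396 several and 1193 were not listed. Values were taken as log2(signal + 16), probe sets averaging above the 30th percentile (26.4) were kept (8695), and limma 3.58.1 in R 4.3.3 was fitted over all 19 arrays with group as the only factor and moderated variances with a trend. P-values were adjusted by Benjamini-Hochberg over all 8695, with a threshold of 0.05. The fit was tested on simulated data with known changes. Array clusters came from average linkage on 1 minus Pearson's correlation over all probe sets kept.

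The members and the gene lists were chosen with earlier results of these data known. Given in full were the 12 called member probe sets with the smallest adjusted p; Phb2, Hspd1, Hspe1, Hspa9 and Tfam were always named, and up to 4 called genes of each list. Alternatives were pseudocounts of 1 and 64, no filter or a filter at the 50th percentile, quantile normalisation, fits on the 2 groups compared, the cluster as a term or within a cluster, a block of replicate numbers, and leaving out day 5 arrays 1 and 2 or each array in turn, the last also within a cluster (chosen after seeing the data). Sequences are RefSeq's, build GRCm38.p6. The 3 comparisons with unirradiated hosts share the same 4 arrays, and those with day 5 share its 8.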

Additional observations from a re-analysis of the deposited data

Results flagged for a closer look

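Single arrays stood far from the rest of their group for 4 of 16 probe sets, the 12 given in full and those of Phb2, Hspd1 and Hspa9, in 48 groups of 4 or 8 arrays checked with Dixon's criterion; chance alone flags about 1 in 20 groups. Day 5 array 1 read 117.5 for Mrpl2, where the next day 5 array read 76.6. The same array read 309.5 for Timm44, with the next at 172.2, it read 161.8 for Mrps10, with the next at 116.6, and it read 309.4 for Mrpl12, with the next at 209.6. Day 40 array 1 read 305.9 for Timm44, with the next at 179.8. Each of these 5 readings was the highest of its group, and both arrays belong to array cluster 1.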

How the results depend on the processing

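Of the calls at day 5 against unirradiated hosts (2), 1 was left with a pseudocount of 64, with no filter, with quantile normalisation or in a fit on those 2 groups alone, and 0 without day 5 arrays 1 and 2; leaving out 1 array gave 0 to 2. At day 40 against unirradiated hosts (0), 1 was called within array cluster 2 and 1 in a fit on those 2 groups. At day 115 against unirradiated hosts (20), 0 were called with the cluster as a term and 38 in a fit on those 2 groups, and leaving out 1 array gave 9 to 19; Tomm40 turned to -0.02 and Hspd1 (93277_at) to 0.087 with the cluster as a term. At day 40 against day 5 (0), 7 were called with the cluster as a term, 5 within cluster 2, and 0 to 1 when 1 array was left out, the 1 without day 5 array 4. Within cluster 2, leaving out 1 array in turn, a setting added after the data were seen, gave 18 without day 5 array 4, 2, 4, 3 and 3 without day 5 arrays 5 to 8, and 0 and 1 without day 40 arrays 3 and 4; within cluster 1 it gave 0 each time. At day 115 against day 5 (11), 1 was called within cluster 1, 4 in a fit on those 2 groups and 22 without day 5 arrays 1 and 2, and leaving out 1 array gave 2 to 15. The comparison of day 115 with day 40 and the difference between the clusters gave 0 under each setting run. Why the counts moved was not tested. Among these settings, shares of all probe sets called are given above only for the cluster as a term and for whole clusters. The other counts therefore cannot be read as particular to the members.

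With the replicate number as a block, 25 members were called at day 5 against unirradiated hosts (29.1%, 20 up and 5 down), where 19.6% of all probe sets were; 2 were called at day 40 against unirradiated hosts (4.68% of all) and 0 at day 115 against day 5 (2.28% of all). The numbers share no stated origin and correlations of same-numbered deviations ran from -0.666 to 0.763, so samples were not taken as paired. Signals under 26.4 were not tested, which left out 15 members.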
